A study of Homo sapiens with 9 samples.

Results

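The constitutive chaperones and co-chaperones of HCT116 cells were examined in RNA-seq data of CRLM1 overexpression. The members were all protein-coding genes with a symbol of the HSPA, HSPB, HSP90, DNAJA, DNAJB, DNAJC, BAG or PFDN kind, the genes CCT2 to CCT8, and HSPD1, HSPE1, TCP1, STIP1, AHSA1 and CDC37. The heat-inducible genes HSPA1A, HSPA1B, HSPA1L, HSPA6, HSPB1, DNAJB1 and BAG3 and the endoplasmic reticulum (ER) genes HSPA5, HSP90B1 and DNAJB9 were left out. This gave 88 members among 31558 listed genes, chosen by name and not by level. The name pattern also caught 3 genes set apart here as no chaperone of these families, HSPBAP1 and the read-through genes DNAJC25-GNG10 and HSPB2-C11orf52, whose reads may be shared with the genes they join. The other members were grouped by symbol.

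HCT116 is a human colorectal cancer (CRC) line of epithelial cells. The 9 samples fall into 3 groups of 3 replicates: cells that overexpress the long noncoding RNA CRLM1 (CRLM1-OE), cells with its antisense sequence (Anti) and cells with the empty plasmid (Ctrl). The study's methods describe a lentiviral pTSB vector with GFP and puromycin resistance for CRLM1 and call the sequenced cells transfected, so that it is not clear whether they were the selected lines. All groups share this 1 cell line, and Anti also carries an insert, so that Ctrl alone lacks one. CRLM1 itself had 32751 to 38704 counts in the CRLM1-OE samples, 0 in every Ctrl sample and 1540 to 1951 in Anti, where reads of the antisense insert cannot be told from the sense ones because the use of strand in counting is not stated. RNA came from whole cultures, so that fewer cells with a transcript and less of it per cell cannot be told apart. Total counts per sample ran from 33302292 to 44514692, and 3 counts, the floor used here, correspond to between 0.0674 and 0.0901 CPM (counts scaled to the total of a sample), which covers counting error only. All 6 epithelial markers checked were present, with summed counts between 338915 and 488710 per sample, against 326 to 709 for 11 markers of blood, fibroblast, endothelial and liver cells. Most of the latter counts were COL1A1, whose mean level was 2.2 FPKM in CRLM1-OE, against 1.2 in Ctrl and 1.31 in Anti, and the part of such markers in the results was not tested.

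Molecular chaperones help other proteins to fold. HSP70 proteins bind short stretches of unfolded chains in a cycle of ATP binding and hydrolysis, J-domain proteins deliver clients and start the hydrolysis, and nucleotide exchange factors such as the BAG proteins end the cycle. HSP90 acts later, on nearly folded kinases and receptors, while TRiC (also called CCT) is a ring-shaped chaperonin that folds actin and tubulin, which prefoldin hands over to it. Chaperones called constitutive are made in unstressed cells, and heat-shock factor 1 drives the inducible ones through heat-shock elements. These kinds are not exclusive, and membership here was set by name.

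To describe the promoters of the members, the 250 bases before each RefSeq start (GRCh38.p14) were searched on both strands for the heat-shock element, taken as 3 units of GAA and its complement TTC in turn with any 2 bases between units. It was found in 5 of the 76 members with a promoter entry, DNAJB6, HSP90AA1, HSP90AB1, HSPA8 and HSPD1, and in 0.557% of all 27305 genes. All 5 are shown, with the element in capitals and each line read 5′ to 3′ on the strand of the gene. A match is a description of letters, not of a bound site. HSPA8 and HSP90AB1 each held a further match that is not printed. The HSPD1 match also lies before the annotated start of its neighbour HSPE1 (chr2:197500140, forward strand), which the search did not count.
HSPA8, chr11:123062171-123062199, reverse strand: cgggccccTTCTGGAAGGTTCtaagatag
HSP90AB1, chr6:44247823-44247851, forward strand: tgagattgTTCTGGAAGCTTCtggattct
HSP90AA1, chr14:102087112-102087140, reverse strand: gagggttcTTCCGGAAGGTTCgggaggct
HSPD1, chr2:197500060-197500088, reverse strand: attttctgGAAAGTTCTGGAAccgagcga
DNAJB6, chr7:157336865-157336893, forward strand: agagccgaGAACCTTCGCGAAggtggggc

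The ER stress response element, CCAAT and CCACG with any 9 bases between them, had no match in the same windows of members and was found in 0.0916% of all genes. The stretches before the starts of HSPB8 and DNAJC3, the members with the largest rise and the largest fall below, held neither motif and are printed in lower case, without annotated exons (GENCODE version 44).
HSPB8, chr12:119178681-119178930, forward strand: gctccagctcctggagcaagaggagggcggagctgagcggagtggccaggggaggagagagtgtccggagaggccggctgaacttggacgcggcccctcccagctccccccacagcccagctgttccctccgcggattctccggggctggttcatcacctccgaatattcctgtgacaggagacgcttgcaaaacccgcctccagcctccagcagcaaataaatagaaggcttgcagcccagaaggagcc
DNAJC3, chr13:95676974-95677138, forward strand: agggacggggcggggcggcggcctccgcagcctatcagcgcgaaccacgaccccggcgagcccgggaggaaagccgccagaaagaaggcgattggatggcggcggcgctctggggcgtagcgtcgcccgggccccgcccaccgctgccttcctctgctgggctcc

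Of the 88 members, 72 had a mean count of at least 100 over the 9 samples, 3 had a mean from 20 to under 100, and 13 had a lower mean. None was at 0 in every sample. Levels are given as FPKM, the authors' fragments per kilobase of gene, scaled to the mapped fragments of a sample. Together the members made up between 3847 and 3997 FPKM in each sample. The highest was HSP90AB1, the cytosolic HSP90 beta, with 710 ± 1.1 FPKM in CRLM1-OE, against 665 ± 15 in Ctrl and 637 ± 8.3 in Anti (mean ± SD, n = 3). PFDN2, CCT3, HSPA8 and CCT7 followed, at means over all samples between 224.1 and 340.6 FPKM. The small heat-shock proteins HSPB2, HSPB3, HSPB6, HSPB7 and HSPB9 and the J-domain genes DNAJB7, DNAJB8, DNAJB13 and DNAJC5B had mean counts of less than 3, the floor.

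To learn which members moved with CRLM1, the counts were scaled by edgeR's TMM factors and tested by its quasi-likelihood test, and a member is said to have risen or fallen where p, adjusted by Benjamini and Hochberg's method over all genes tested, did not exceed 0.05. Against Ctrl, 11 members were higher and 39 lower in CRLM1-OE, of 86 tested. Over all 29846 genes tested, 15% were higher and 16.8% lower, but most members are well expressed, and among protein-coding genes averaging 100 counts or more these shares were 29.2% and 39.5%. The members with such a count gave 15.3% and 54.2%. Their median log2 fold change was -0.13, against -0.04 over all genes with this count. Against Anti, 20 members were higher and 38 lower of 87 tested, beside 17.1% and 18.5% of all genes, and 33.8% and 40.9% of the well expressed protein-coding ones. The members with a mean count of at least 100 gave 26.4% and 51.4%, with a median of -0.10.

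Between the controls, 19 members were higher in Anti and 21 lower than in Ctrl, of 88 tested, beside 11.5% and 12.2% of all genes and 25.7% and 29.2% of the well expressed protein-coding ones. The median of the members was -0.0063. These comparisons share samples pairwise and are given side by side, not as independent evidence. Scaling by total counts in place of TMM moved the middle log2 fold change of all genes averaging 100 counts or more up by 0.14 against Ctrl, by 0.06 against Anti and by 0.10 between the controls. On that scale the members split into 27 higher and 24 lower against Ctrl, 25 and 30 against Anti, and 36 and 9 between Anti and Ctrl. The excess of lower over higher members in CRLM1-OE against Ctrl was therefore found with TMM and not with total counts. On total counts 36.1% of the members averaging 100 counts or more were higher against Ctrl and 33.3% lower. Among the well expressed protein-coding genes these shares were 44.9% and 22.9%. The medians were 0.016 for the members and 0.094 for those genes, and with TMM they were -0.13 and -0.05. The change of scale moves every gene by about the same amount. The gap between these medians could therefore hardly differ between the scales, and the second scale is no separate evidence for it. HSPA9, DNAJC3 and DNAJB2 kept their sign and their call on both scales.

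**Figure D1:**
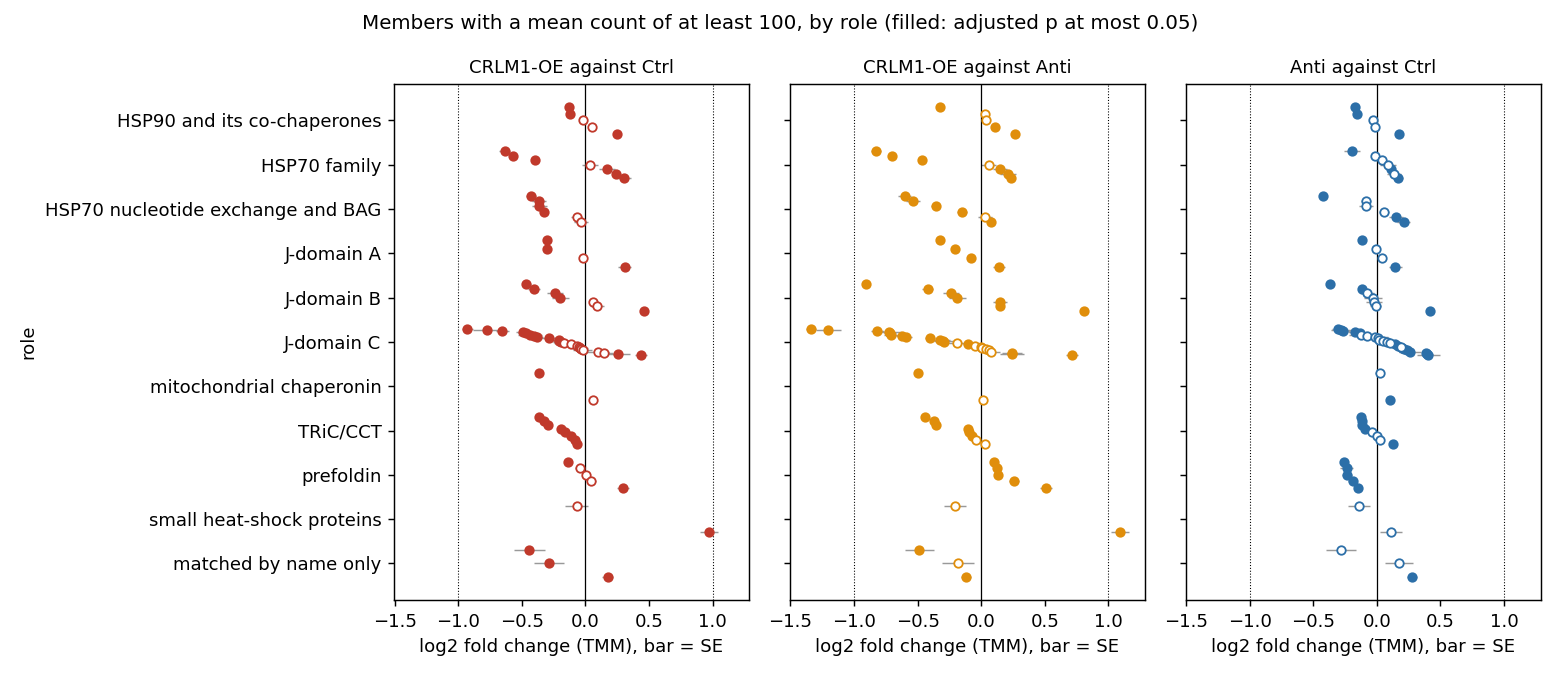
The log2 fold change (TMM, x axis, bars the standard error) of each member with a mean count of at least 100, sorted by role (y axis), in the 3 comparisons; filled points passed the adjusted p of 0.05 and dotted lines mark a 2-fold change. The TRiC points lie left of 0 against Ctrl, prefoldin lies right of 0 against Anti, and DNAJC3, DNAJC30 and HSPB8 alone lie past the dotted lines, against Anti.

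The study's threshold of a 2-fold change was passed by no member against Ctrl by edgeR's test with TMM, where 3.41% of all genes did. HSPB8 did on total counts or by limma on log2(FPKM + 0.1). Against Anti 4 members did, where 5.65% of all genes did: HSPB8, DNAJC3, DNAJC30 and DNAJC28. Among protein-coding genes averaging 100 counts or more, 214 of 11086 did against Ctrl and 466 of 11130 against Anti. Of the 72 members with such a count, 3 did against Anti. No member did between Anti and Ctrl, where the share of all genes was 1.06%. The call of DNAJC28 rests on 6 to 29 counts in the Anti samples and 4 to 12 in CRLM1-OE, overlapping ranges, and it was lost without CRLM1-OE replicate 2, without Anti replicate 1 and without Anti replicate 2, which left the other 3.

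HSP70 proteins moved in both directions. HSPA8, the constitutive cytosolic HSP70 (HSC70, chr11:123057489-123063230 on the reverse strand, GRCh38), had 286, 278 and 278 FPKM in CRLM1-OE, against 227, 218 and 212 in Ctrl and 231, 232 and 232 in Anti. Every CRLM1-OE sample was above every other sample. HSPA8 rose by 0.24 ± 0.020 (SE) on the log2 scale against Ctrl (adjusted p = 6.19e-33) and by 0.23 ± 0.017 (SE) against Anti (adjusted p = 3.26e-40), and did not pass between the controls (-0.011, adjusted p = 0.747, though 0.094 on total counts). HSPA9, the mitochondrial HSP70 (mortalin, chr5:138553756-138575675, reverse strand), went the other way, with 85.5, 86 and 86.7 FPKM in CRLM1-OE, against 121, 118 and 115 in Ctrl and 136, 135 and 136 in Anti. All samples of CRLM1-OE were lowest, and all of Anti highest. The log2 fold change of HSPA9 was -0.57 ± 0.023 (SE) against Ctrl (adjusted p = 3.11e-135) and -0.70 ± 0.020 (SE) against Anti (adjusted p = 3.37e-273), with a small rise of 0.11 in Anti over Ctrl. The FPKM of HSPA8 was 3.26 ± 0.076 times that of HSPA9 in CRLM1-OE, 1.86 ± 0.017 times in Ctrl and 1.71 ± 0.012 times in Anti (SD, n = 3), a ratio within each sample that a scaling of the sample leaves as it is.

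HSPA4, a member of the HSP110 branch that exchanges the nucleotide of HSP70, had 18.2, 19 and 18.9 FPKM in CRLM1-OE, against 23.4, 22 and 22.8 in Ctrl and 25.1, 24.3 and 25.4 in Anti, with no overlap between CRLM1-OE and either control. It fell by 0.40 against Ctrl and by 0.46 against Anti on the log2 scale. HSPA13, an HSP70-like protein of microsomes, had 8.36, 8.45 and 7.63 FPKM in CRLM1-OE, against 11.4, 12 and 11.6 in Ctrl and 13.8, 14.1 and 14 in Anti and showed the largest fall among HSP70 members, of 0.64 against Ctrl and 0.82 against Anti. HSPA12A, a distant relative, stood lower in level, with 4.44, 4.19 and 4.0 FPKM in CRLM1-OE, against 3.33, 2.89 and 3.22 in Ctrl and 3.61, 3.95 and 3.48 in Anti, and rose by 0.31 against Ctrl. Its rise of 0.15 against Anti was lost without CRLM1-OE replicate 1 (0.10), without Anti replicate 1 (0.13) or without Anti replicate 3 (0.11). Over the 9 HSP70 members, 3 rose and 3 fell in CRLM1-OE against either control, which is 33.3% each way. Of the well expressed protein-coding genes 29.2% rose and 39.5% fell against Ctrl, and 33.8% and 40.9% against Anti. HSPA2 and HSPA12B had mean counts under 100.

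**Figure D2:**
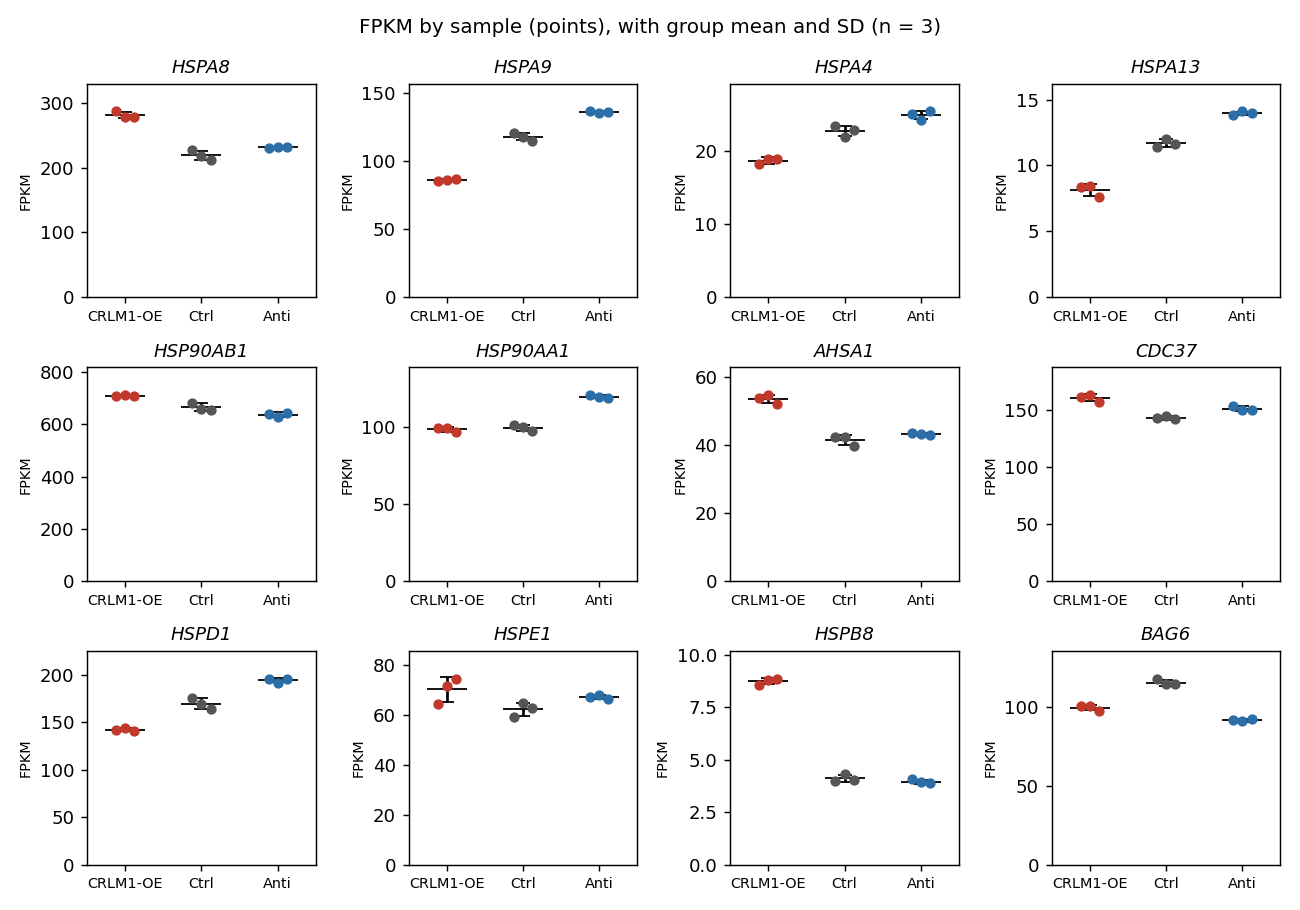
FPKM (y axis, from 0) of 12 members in every sample, grouped as CRLM1-OE, Ctrl and Anti (x axis), with the group mean and SD. HSPA8, AHSA1, HSPB8, HSP90AB1 and CDC37 are highest in CRLM1-OE, and HSPA9, HSPA4, HSPA13 and HSPD1 are lowest. Of these HSP90AB1 and CDC37 did not pass against Ctrl on TMM. BAG6 is highest in Ctrl and HSP90AA1 in Anti.

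Of the 6 nucleotide exchange and BAG genes, 4 fell against Ctrl and none rose, with a median log2 fold change of -0.34. Against Anti 4 fell and 1 rose, and on total counts 3 fell and 1 rose. Among the well expressed protein-coding genes 39.5% fell against Ctrl and 40.9% against Anti with TMM. BAG6, a large protein that guards hydrophobic segments before they reach the ER, was the most abundant, with 101, 101 and 97.6 FPKM in CRLM1-OE, against 118, 114 and 114 in Ctrl and 91.4, 90.8 and 92.2 in Anti. It fell by 0.33 against Ctrl and rose by 0.077 against Anti, whose samples were the lowest (-0.43 against Ctrl). BAG1, BAG2 and BAG5, which bind the ATPase domain of HSP70, fell in CRLM1-OE against both controls, by 0.42, 0.36 and 0.37 against Ctrl. BAG1 had 10.9, 10.1 and 10.9 FPKM in CRLM1-OE, against 13.5, 13.7 and 12.5 in Ctrl and 12.8, 13.2 and 13.7 in Anti. BAG2 had 2.65, 2.43 and 2.36 FPKM in CRLM1-OE, against 2.97, 2.92 and 2.96 in Ctrl and 3.47, 3.49 and 3.53 in Anti. BAG5 had 3.73, 3.95 and 3.71 FPKM in CRLM1-OE, against 4.59, 4.49 and 4.45 in Ctrl and 5.7, 5.57 and 5.42 in Anti. In each of the 3 genes every CRLM1-OE sample was below every control sample.

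The 5 genes of HSP90 and its co-chaperones stayed within a log2 fold change of -0.33 to 0.26 in CRLM1-OE. HSP90AB1 did not pass against Ctrl (-0.021 ± 0.016 (SE), adjusted p = 0.416) and was 0.11 higher than in Anti, and on total counts it was 0.12 above Ctrl, past the threshold. HSP90AA1, the stress-responsive alpha form, had 99.2, 99.3 and 96.4 FPKM in CRLM1-OE, against 101, 99.5 and 97.3 in Ctrl and 120, 119 and 119 in Anti. The Anti samples stood above both other groups, which overlapped. Its log2 fold change was -0.13 against Ctrl, a fall on TMM that became 0.012 on total counts, and -0.33 against Anti. The ratio of HSP90AB1 to HSP90AA1 in FPKM was 7.22 ± 0.11 in CRLM1-OE, against 6.7 ± 0.079 in Ctrl and 5.34 ± 0.076 in Anti (SD, n = 3).

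AHSA1, which speeds the ATPase of HSP90, was the co-chaperone that rose, with 53.7, 54.5 and 52.1 FPKM in CRLM1-OE, against 42.2, 42.4 and 39.7 in Ctrl and 43.3, 43.2 and 42.8 in Anti. All CRLM1-OE samples lay above all others, and the log2 fold change was 0.25 ± 0.031 (SE) against Ctrl (adjusted p = 2.82e-15) and 0.26 ± 0.028 (SE) against Anti (adjusted p = 2.04e-19). CDC37, which loads kinases onto HSP90, had 162, 163 and 157 FPKM in CRLM1-OE, against 143, 145 and 142 in Ctrl and 154, 150 and 150 in Anti and passed in neither comparison on TMM (0.053 and 0.042) but in both on total counts (0.19 and 0.10). STIP1, the adaptor between HSP70 and HSP90 also called HOP, had 91.2, 93.3 and 90.4 FPKM in CRLM1-OE, against 93.9, 91.6 and 90.7 in Ctrl and 87.8, 87.6 and 85.2 in Anti. Its fall of 0.12 against Ctrl was 0.020 on total counts, and against Anti it did not pass (0.032).

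J-domain proteins were the largest group, with 4 of class A, 10 of class B and 28 of class C. Against Ctrl 1 of class A rose and 2 fell, 1 of class B rose and 4 fell, and 2 of class C rose and 12 fell. Against Anti the numbers were 1 and 3, 3 and 4, and 4 and 14. On total counts they were 2 and 2, 3 and 2, and 7 and 8 against Ctrl, and 1 and 2, 3 and 3, and 5 and 13 against Anti. With TMM 50% of class A, 44.4% of class B and 42.9% of class C were lower against Ctrl. Of the well expressed protein-coding genes 39.5% were. Against Anti these shares were 75%, 40% and 50%, beside 40.9%. On total counts 25% of class C were higher and 28.6% lower against Ctrl, beside 44.9% and 22.9% of those genes. Against Anti they were 17.9% and 46.4%, beside 39.3% and 35%. DNAJC3, an ER-lumenal co-chaperone also called p58IPK (chr13:95677139-95794988, forward strand), fell the most of all members. It had 5.31, 4.88 and 5.03 FPKM in CRLM1-OE, against 9.22, 8.89 and 8.71 in Ctrl and 11.9, 12.6 and 12.8 in Anti, an order of CRLM1-OE below Ctrl below Anti with no overlap. The log2 fold change was -0.93 ± 0.043 (SE) against Ctrl (adjusted p = 9.03e-103), -1.34 ± 0.039 (SE) against Anti (adjusted p = 1.46e-260) and 0.39 ± 0.036 (SE) in Anti over Ctrl (adjusted p = 9.34e-26).

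DNAJC30, a mitochondrial inner-membrane protein, had 1.61, 1.71 and 1.38 FPKM in CRLM1-OE, against 2.36, 2.45 and 2.63 in Ctrl and 3.72, 3.59 and 3.12 in Anti, the same order, and fell by 0.78 and 1.20 against Ctrl and Anti. DNAJB11, the J-domain partner of the ER HSP70, had 20.7, 21.4 and 21.4 FPKM in CRLM1-OE, against 27.5, 27.5 and 25.8 in Ctrl and 38.1, 38.1 and 39.1 in Anti. It fell by 0.46 against Ctrl and 0.91 against Anti and rose by 0.42 in Anti over Ctrl. The disulfide reductase DNAJC10 differed mainly in Anti, with 1.32, 1.43 and 1.4 FPKM in CRLM1-OE, against 1.54, 1.46 and 1.41 in Ctrl and 2.07, 2.06 and 2.06 in Anti. Its fall of 0.21 against Ctrl was smaller than that of 0.63 against Anti, and the samples of the first overlapped. On total counts the first was -0.064 and did not pass.

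Other falls were those of DNAJC22 (-0.65 against Ctrl and -0.82 against Anti), DNAJC16 (-0.49 and -0.72) and DNAJC13, an endosomal protein (-0.44 and -0.72). DNAJC22 had 4.51, 4.42 and 4.72 FPKM in CRLM1-OE, against 6.5, 6.68 and 6.66 in Ctrl and 7.85, 7.71 and 7.72 in Anti. DNAJC16 had 2.77, 2.55 and 2.42 FPKM in CRLM1-OE, against 3.48, 3.32 and 3.28 in Ctrl and 4.09, 3.94 and 4.34 in Anti. DNAJC13 had 0.74, 0.66 and 0.80 FPKM in CRLM1-OE, against 0.96, 0.93 and 0.87 in Ctrl and 1.18, 1.11 and 1.24 in Anti. In these genes CRLM1-OE was lowest and Anti highest in every sample.

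DNAJB2, which sorts clients to the proteasome and is best known from neurons, was the J-domain gene that rose the most. It had 38.6, 39.8 and 39.3 FPKM in CRLM1-OE, against 26.4, 25.6 and 26.8 in Ctrl and 21.5, 21.4 and 22.3 in Anti, and the log2 fold change was 0.46 ± 0.030 (SE) against Ctrl (adjusted p = 4.18e-52) and 0.81 ± 0.029 (SE) against Anti (adjusted p = 1.72e-172). DNAJC1, an ER-membrane protein, had 16.9, 16.7 and 16.6 FPKM in CRLM1-OE, against 11.9, 11.1 and 11.1 in Ctrl and 10.3, 9.73 and 9.48 in Anti and rose by 0.43 and 0.71. Both were lower in Anti than in Ctrl, by 0.37 and 0.30. DNAJA4 rose against both controls as well, with 7.48, 7.75 and 7.55 FPKM in CRLM1-OE, against 5.68, 5.65 and 5.64 in Ctrl and 6.62, 6.6 and 6.76 in Anti, by 0.31 and 0.14.

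**Figure D3:**
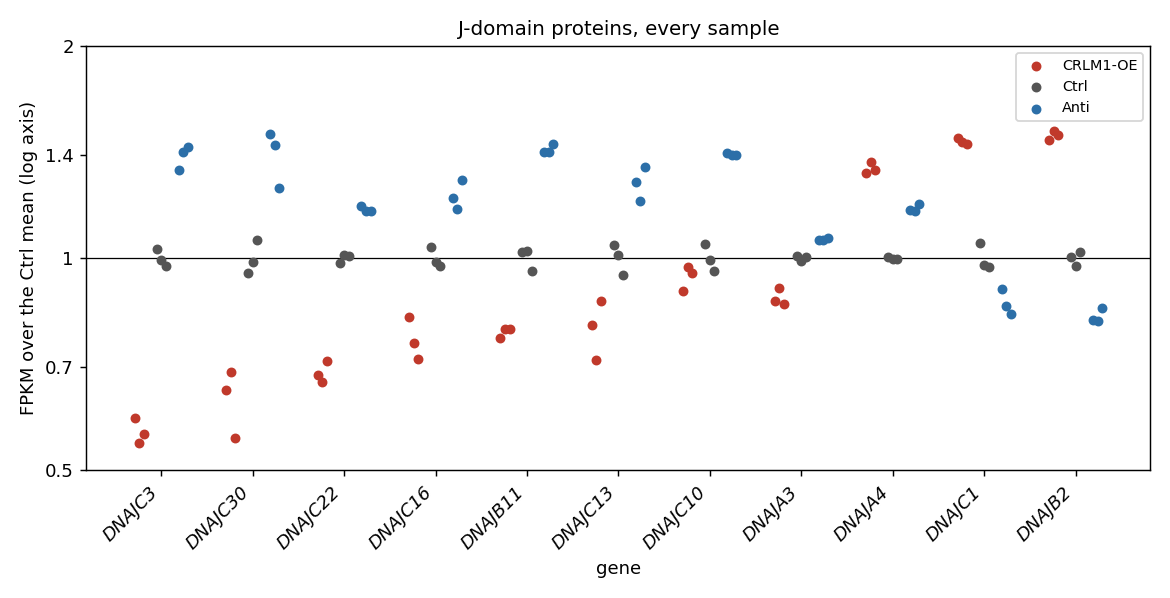
FPKM of 11 J-domain genes (x axis) in every sample over the mean of the Ctrl samples (y axis, log scale). From DNAJC3 to DNAJA3 the CRLM1-OE points lie below 1, with DNAJC10 close to it, and DNAJA4, DNAJC1 and DNAJB2 lie above 1 in CRLM1-OE.

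By compartment, 7 of the 9 ER J-domain genes fell against Ctrl and 1, DNAJC1, rose. Against Anti 6 fell and 1 rose, and between Anti and Ctrl 4 rose and 1 fell. On total counts 4 fell and 2 rose against Ctrl, and 5 fell and 1 rose against Anti. Among the well expressed protein-coding genes 39.5% fell against Ctrl and 40.9% against Anti with TMM, and 22.9% and 35% on total counts. Between Anti and Ctrl 25.7% of those genes rose with TMM. The ER chaperones HSPA5, HSP90B1 and DNAJB9, which are no members, moved with them: all 3 fell against both controls and rose in Anti over Ctrl. HSPA5, the ER HSP70 (BiP), had 735, 739 and 717 FPKM in CRLM1-OE, against 882, 872 and 848 in Ctrl and 1016, 1009 and 1027 in Anti. Of the 5 mitochondrial J-domain genes, 3 fell and none rose against Ctrl, and 4 fell and none rose against Anti, beside the same 39.5% and 40.9%. DNAJA3, the partner of HSPA9, was among the genes that fell (-0.30 and -0.32), with 46.9, 49 and 46.6 FPKM in CRLM1-OE, against 54.4, 53.5 and 54.2 in Ctrl and 57.3, 57.3 and 57.7 in Anti.

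HSPD1 and HSPE1 encode HSP60 and HSP10, the ring and the lid of the mitochondrial chaperonin, and start head to head on chromosome 2, HSPD1 at chr2:197486584-197516737 on the reverse strand and HSPE1 at chr2:197500140-197503449 on the forward strand. The annotated spans overlap, and since the use of strand in counting is not stated, reads from shared sequence cannot be assigned with certainty. HSPD1 had 142, 144 and 140 FPKM in CRLM1-OE, against 175, 169 and 164 in Ctrl and 195, 192 and 195 in Anti, with CRLM1-OE lowest and Anti highest. It fell by 0.37 ± 0.022 (SE) against Ctrl (adjusted p = 8.67e-61) and by 0.49 ± 0.019 (SE) against Anti (adjusted p = 1.4e-145). HSPE1 had 64.7, 71.9 and 74.4 FPKM in CRLM1-OE, against 59.3, 64.7 and 62.9 in Ctrl and 67.4, 68 and 66.4 in Anti, and the groups overlapped. It passed in no comparison on TMM, with 0.060 ± 0.034 (SE), 0.016 ± 0.032 (SE) and 0.021 ± 0.034 (SE), and in all 3 on total counts, with 0.20, 0.075 and 0.13. Without CRLM1-OE replicate 1 (0.12) or without Ctrl replicate 2 (0.10) it passed against Ctrl on TMM as well. The ratio of HSPD1 to HSPE1 in FPKM was 2.03 ± 0.16 in CRLM1-OE, against 2.72 ± 0.20 in Ctrl and 2.88 ± 0.063 in Anti (SD, n = 3), and that of every CRLM1-OE sample was below those of all other samples.

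All 8 well expressed TRiC subunits were lower in CRLM1-OE than in Ctrl by the test, and 6 of them against Anti. Of the well expressed protein-coding genes 39.5% and 40.9% were lower. The ninth gene, CCT6B, averaged 17 counts. On total counts 3 subunits were lower and 1, CCT4, was higher in CRLM1-OE against Ctrl, so only the falls of CCT8, CCT5 and CCT6A stood on both scales. Against Anti 3 were lower and 1 was higher on total counts. On that scale 22.9% of the well expressed protein-coding genes were lower against Ctrl and 35% against Anti. CCT8 had 78.3, 80.3 and 77.2 FPKM in CRLM1-OE, against 96, 93.9 and 90.6 in Ctrl and 97.2, 96 and 98.1 in Anti. CCT5 had 51.2, 49.6 and 47.6 FPKM in CRLM1-OE, against 58.9, 57.4 and 55.5 in Ctrl and 62.2, 61.5 and 62.5 in Anti. CCT6A had 62.4, 65.7 and 64.5 FPKM in CRLM1-OE, against 74.3, 70.6 and 73 in Ctrl and 84.7, 83.6 and 85 in Anti. In each of them all CRLM1-OE samples were below all samples of both controls. The log2 fold changes against Ctrl were -0.37 ± 0.026 (SE), -0.33 ± 0.025 (SE) and -0.29 ± 0.026 (SE), and against Anti -0.35 ± 0.023 (SE), -0.37 ± 0.022 (SE) and -0.44 ± 0.023 (SE).

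The other 5 subunits differed less. TCP1, the alpha subunit, had 83.8, 86.1 and 85.5 FPKM in CRLM1-OE, against 90.1, 91.1 and 88.3 in Ctrl and 88.6, 87.5 and 87.8 in Anti, with a log2 fold change of -0.19 against Ctrl. CCT3 had 250, 247 and 240 FPKM in CRLM1-OE, against 261, 254 and 247 in Ctrl and 248, 252 and 250 in Anti, with a log2 fold change of -0.16 against Ctrl. CCT7 had 222, 226 and 224 FPKM in CRLM1-OE, against 232, 222 and 219 in Ctrl and 224, 221 and 227 in Anti, with a log2 fold change of -0.12 against Ctrl. Of these only TCP1 kept CRLM1-OE below both controls in every sample. CCT2 had 78.1, 77.5 and 74.9 FPKM in CRLM1-OE, against 76, 76.3 and 72.7 in Ctrl and 81.9, 79.1 and 78.8 in Anti, with a log2 fold change of -0.079 against Ctrl. CCT4 had 161, 167 and 161 FPKM in CRLM1-OE, against 158, 159 and 156 in Ctrl and 153, 158 and 155 in Anti, with a log2 fold change of -0.065 against Ctrl. The CRLM1-OE samples of CCT4 stood above those of Ctrl in FPKM, although the TMM value was negative. CCT2, CCT4 and CCT7 were positive on total counts, at 0.062, 0.076 and 0.024. The call of CCT4 was lost without CRLM1-OE replicate 1 (-0.053), without Ctrl replicate 2 (-0.049) or without Ctrl replicate 3 (-0.055), and that of CCT2 without CRLM1-OE replicate 3 (-0.065) or without Ctrl replicate 2 (-0.058).

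Each TRiC ring holds 1 copy of every subunit. The ratio of the highest to the lowest of the 8 subunits in FPKM was 4.97 ± 0.082 in CRLM1-OE, against 4.43 ± 0.018 in Ctrl and 4.03 ± 0.052 in Anti (SD, n = 3). In every sample the highest was CCT3 and the lowest CCT5, so that this ratio is that of CCT3 to CCT5 and goes with the fall of CCT5 given above. It was higher in every CRLM1-OE sample than in every control sample. RNA levels do not give the make-up of the ring.

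Prefoldin subunits moved together against Anti. All 5 were higher in CRLM1-OE than in Anti and all 5 lower in Anti than in Ctrl, while 1 rose and 1 fell in CRLM1-OE against Ctrl. The median log2 fold changes were 0.13, -0.24 and 0.0015. Of the well expressed protein-coding genes 33.8% were higher against Anti, and 29.2% were lower in Anti than in Ctrl. On total counts 4 rose and none fell against Ctrl (median 0.14), all 5 stayed higher against Anti, and 3 of 5 were lower in Anti than in Ctrl. On that scale 44.9% of the well expressed protein-coding genes rose against Ctrl and 39.3% against Anti, and 16% were lower in Anti than in Ctrl. PFDN4 moved the most. It had 24.7, 24.5 and 25.6 FPKM in CRLM1-OE, against 18.1, 18.8 and 19.4 in Ctrl and 16.6, 17 and 17.2 in Anti and rose by 0.30 ± 0.046 (SE) against Ctrl (adjusted p = 8.85e-10) and 0.51 ± 0.046 (SE) against Anti (adjusted p = 2.62e-27). PFDN1 had 38.5, 38.4 and 40.5 FPKM in CRLM1-OE, against 36.2, 35.1 and 33.5 in Ctrl and 30.9, 32.1 and 32 in Anti. PFDN2 had 368, 363 and 360 FPKM in CRLM1-OE, against 331, 342 and 334 in Ctrl and 318, 330 and 319 in Anti. In both, every CRLM1-OE sample was above every other sample in FPKM, but neither gene passed against Ctrl on TMM, and both did on total counts. PFDN5 had 223, 226 and 226 FPKM in CRLM1-OE, against 232, 226 and 228 in Ctrl and 205, 199 and 205 in Anti. PFDN6 had 26.5, 26.1 and 28.4 FPKM in CRLM1-OE, against 24.4, 26.4 and 26.5 in Ctrl and 23.8, 23.2 and 25.1 in Anti. PFDN5 fell by 0.14 against Ctrl, a value of 0.0029 on total counts. VBP1, the sixth subunit by function but not by name, was -0.046, -0.016 and -0.053 in the 3 comparisons and passed in none. Summed over the 5 members, FPKM, which carries no TMM factor, ran from 678 to 681 in CRLM1-OE, from 641 to 648 in Ctrl and from 594 to 601 in Anti.

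**Figure D4:**
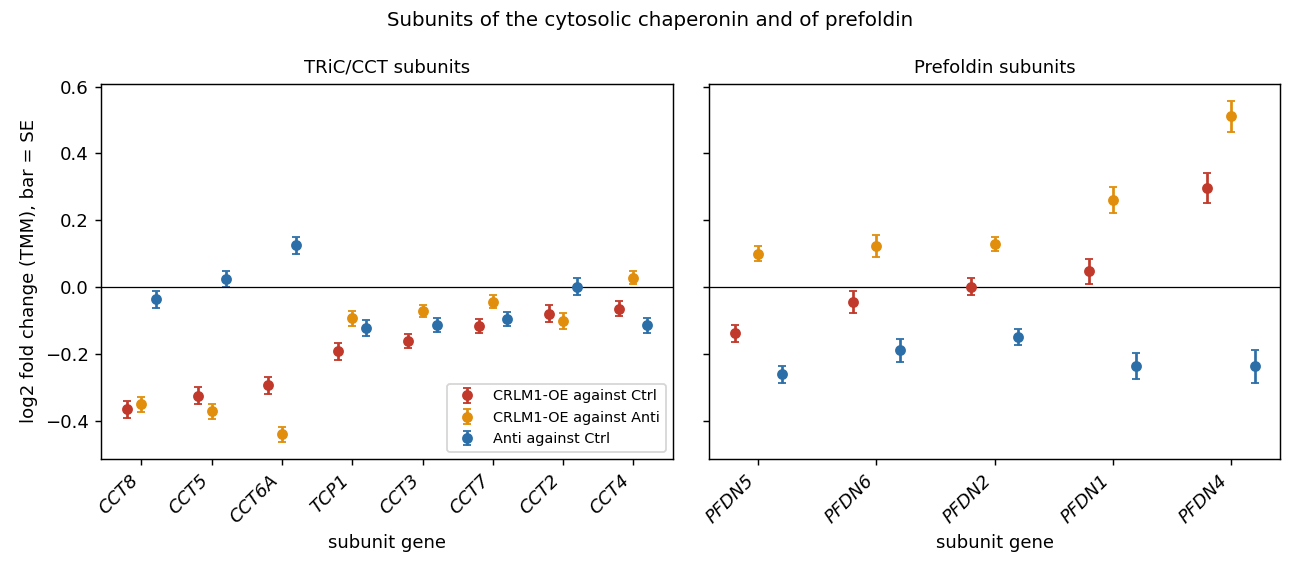
Log2 fold change (TMM, y axis, bars the standard error) of 8 TRiC and 5 prefoldin subunit genes (x axis) in the 3 comparisons. CCT8, CCT5 and CCT6A lie lowest in CRLM1-OE, and every prefoldin subunit lies above 0 against Anti and below 0 in Anti against Ctrl.

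HSPB8 is the small heat-shock protein that works with BAG3 in clearing misfolded proteins by autophagy. It was the only one of the 7 genes grouped here by symbol as small heat-shock proteins that passed in any comparison by this test. Grouping by symbol, also of HSPB11, does not show that a gene acts as a chaperone. It had 8.58, 8.81 and 8.85 FPKM in CRLM1-OE, against 3.99, 4.33 and 4.04 in Ctrl and 4.07, 3.96 and 3.88 in Anti. The CRLM1-OE samples stood far above the rest, and the controls overlapped. The log2 fold change was 0.97 ± 0.069 (SE) against Ctrl (adjusted p = 8.96e-44) and 1.09 ± 0.069 (SE) against Anti (adjusted p = 1.53e-54). Against Ctrl it reached 2-fold on total counts (1.11) and without Ctrl replicate 2 (1.02). HSPB11, the other member with a mean count over 100, was -0.20 against Anti, with an adjusted p of 0.052 that became 0.0459 once replicate was added as a block.

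The genes named by the rule between the controls and not yet given were DNAJC2, DNAJC4 and DNAJC25-GNG10. DNAJC2, a ribosome-bound protein, had 2.27, 2.29 and 2.46 FPKM in CRLM1-OE, against 2.43, 2.2 and 1.92 in Ctrl and 1.93, 2.11 and 1.72 in Anti and was -0.28 in Anti against Ctrl, a call lost without Anti replicate 3 (-0.21) or without Ctrl replicate 1 (-0.20), and on total counts (-0.18). Its rise of 0.24 in CRLM1-OE against Anti was lost without Anti replicate 3 (0.17). DNAJB6, shown above for its promoter and outside the rule for named genes, was 0.059 against Ctrl, which did not pass, and 0.15 against Anti, which did. DNAJC4 had 16.6, 17.1 and 16.8 FPKM in CRLM1-OE, against 18.1, 16.8 and 18.9 in Ctrl and 15.2, 16.5 and 15.9 in Anti and was -0.27. DNAJC25-GNG10 had 28.7, 29.2 and 28.6 FPKM in CRLM1-OE, against 24.9, 23.3 and 22.4 in Ctrl and 30.9, 30.5 and 29.7 in Anti and was 0.28 higher in Anti.

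Among genes of the pathway that are no members, the heat-shock factors and inducible genes were mostly higher: 8 of 10 rose and 2 fell in CRLM1-OE against Ctrl, and 8 rose and none fell against Anti. On total counts 8 rose and 1 fell, and 9 rose and none fell. With TMM 15% of all genes rose against Ctrl and 17.1% against Anti, and 29.2% and 33.8% of the well expressed protein-coding ones. HSPA1A, whose reads a near-identical copy may share, had a log2 fold change of 3.12 and BAG3, the partner of HSPB8, one of 0.78 against Ctrl. HSF1, the factor itself, was -0.23. Of 34 other co-chaperones, 11 rose and 12 fell against Ctrl, 13 and 9 against Anti, and 4 and 13 between the controls, beside the shares over all genes given above. On total counts these numbers were 20 and 6, 16 and 8, and 11 and 6. On that scale 44.9% of the well expressed protein-coding genes rose and 22.9% fell against Ctrl. These shares were 39.3% and 35% against Anti, and 42.3% and 16% between the controls. ST13, which binds HSP70, fell by 0.50 and HSPH1, of the same HSP110 branch as HSPA4, rose by 0.92 against Ctrl, opposite to HSPA4. GRPEL1 and GRPEL2, the exchange factors of HSPA9, fell by 0.20 and 0.51 against Ctrl, but GRPEL1 was -0.061 on total counts and did not pass (adjusted p = 0.195).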

How the data were processed

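RNA of HCT116 cells was sequenced by the authors as polyA RNA in paired-end reads, with 3 samples in each of CRLM1-OE, Ctrl and Anti, and the samples were grouped by their labels. Adaptors and poor bases were removed with the FASTX-Toolkit, reads under 16 nt were discarded, and TopHat2 placed the rest on GRCh38 (Gencode version 23) with up to 4 mismatches. The authors deposited raw counts of uniquely mapped reads per gene, and FPKM values scaled for gene length and depth. Strand use and the counting of pairs are not stated.

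Here the counts were tested with edgeR 4.0.16 in R 4.3.3 (TMM, glmQLFit and glmQLFTest, two-sided) on the 6 samples of each comparison, for every gene with at least 1 count, with Benjamini-Hochberg adjustment over all genes tested and a threshold of 0.05. The standard error is the log2 fold change over the root of F, and adjusted p below 1e-300 is written as 1e-300. The p-values rest on a spread that edgeR estimates partly from all genes tested, and their size depended on the filter and the test. For DNAJC3 against Anti the adjusted p was 1.46e-260 by the main test and 1.12e-25 after edgeR's filterByExpr. It was 2.24e-28 with at least 10 counts in every sample and 0.000326 by limma on log2(FPKM + 0.1). The log2 fold changes were -1.339, -1.332, -1.325 and -1.281. An exact permutation test of 3 against 3 samples cannot go below 0.1. No 2 replicates agreed within sampling noise (chi-square per degree of freedom at least 2.13). Alternatives were RLE factors, total counts, 2 stricter filters, DESeq2 1.42.0, limma 3.58.1 on log2(FPKM + 0.1) and log2(FPKM + 1), all 9 samples in a single fit, a replicate block and each replicate left out.

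Per-sample values are given for the 5 members with the highest mean FPKM, members past 2-fold with a mean count of at least 20 in either group, the 6 largest called changes in each direction and comparison among members with a mean count of at least 100, and HSP90AA1, HSP90AB1, HSPA8, HSPA4, HSPA9, HSPD1, HSPE1, STIP1, AHSA1, CDC37 and the TRiC genes except CCT6B. The per-sample values of BAG1, BAG2, BAG5, DNAJA3, PFDN6 and HSPA5, the values of DNAJC28, DNAJB6, HSPB11 and of named genes that are no members, and the CRLM1 check fall outside this rule and were added after values were seen. Members and lists were chosen with earlier results of these data known. Sequences are from RefSeq (GRCh38.p14) and positions from GENCODE version 44.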

Additional observations from a re-analysis of the deposited data

How the results depend on the processing

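With total counts, CRLM1-OE against Ctrl gave 27 members higher, 24 lower, 1 past 2-fold and a median of 0.016, CRLM1-OE against Anti a median of -0.044, and Anti against Ctrl 36 higher, 9 lower and a median of 0.099. On that scale the log2 fold change against Ctrl changed sign for CCT2 (0.062), CCT4 (0.076), CCT7 (0.024), HSP90AA1 (0.012), HSP90AB1 (0.12), PFDN5 (0.0029) and STIP1 (0.020), and in Anti against Ctrl for CCT7 (0.0097), CCT8 (0.068), CDC37 (0.094) and HSPA8 (0.094). The different scaling of these samples is all that differs from TMM there. With limma on log2(FPKM + 0.1), 21 members were lower and 1 past 2-fold against Ctrl (median -0.010), 13 were higher against Anti (median -0.058), and 2 were lower in Anti against Ctrl (median 0.086), with CCT2 (0.035) and CCT4 (0.050) changing sign against Ctrl. With limma on log2(FPKM + 1), 18 were higher and 25 lower against Ctrl (median -0.010), 1 was past 2-fold against Anti (median -0.055), and 7 were lower in Anti against Ctrl (median 0.084), with CCT2 (0.035), CCT4 (0.049) and HSP90AB1 (0.094) changing sign against Ctrl and CDC37 (0.080) in Anti against Ctrl. The cause of the limma differences was not tested.

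The median of the members also moved with RLE factors (-0.12 against Ctrl and -0.095 against Anti), filterByExpr (-0.11 against Ctrl), at least 10 counts in every sample (-0.10, -0.089 and, in Anti against Ctrl, -0.0013), DESeq2 (-0.12 against Ctrl) and all 9 samples (-0.14 against Ctrl and 0.00031 in Anti against Ctrl). Leaving out 1 replicate gave 10 to 12 members higher and 35 to 38 lower against Ctrl, with 0 to 1 past 2-fold and medians from -0.1344 to -0.1066. Against Anti it gave 16 to 20 higher, 35 to 38 lower, 3 to 4 past 2-fold and medians from -0.1129 to -0.08289, and in Anti against Ctrl 16 to 19 higher, 18 to 22 lower, 0 past 2-fold and medians from -0.01008 to 0.008038. The 1 member past 2-fold against Ctrl was DNAJC28 without Ctrl replicate 1 and HSPB8 without Ctrl replicate 2. Of these values for single named members, 676 kept direction and side of the threshold, 18 lost the call and 8 gained it.

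Deviations of same-numbered samples correlated weakly (from -0.0328 to 0.0783 over 12941 genes), beside -0.0456 to 0.0744 for different numbers. In CRLM1-OE against Ctrl the same-numbered pairs (0.0216 to 0.0783) lay above the others (-0.0456 to 0.0164), which was not so in the other comparisons. The numbers were not taken to pair the samples. With the replicate block, 11 members were higher and 39 lower against Ctrl, 20 and 38 against Anti, and 19 and 21 in Anti against Ctrl, and all 117 values of members named by the rule kept direction and call. Within the equal count of 38 against Anti, HSPB11 gained the call (adjusted p = 0.0459) and DNAJC14 lost it (adjusted p = 0.0517). Depth limits the 13 members with a mean count under 20.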
